A study of Mus musculus with 15 samples.

Results

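The 10 genes Per1, Per2, Per3, Cry1, Cry2, Arntl, Clock, Nr1d1, Nr1d2 and Dbp form the core of the mammalian circadian clock and its best known output. They were taken by symbol from a table of 30386 gene identifiers, where each symbol matched 1 identifier, and all 10 had enough reads to be tested, as did 11718 genes in all. Their transcripts were counted in 15 libraries of mouse brain, 5 in each of 3 groups. Het_B12 were Tbx1+/- mice, which lack 1 working copy of the T-box transcription factor gene Tbx1, given vitamin B12 dissolved in PBS at 20 mg/kg. Het_PBS were Tbx1+/- mice given PBS alone, and WT_PBS were wild types given PBS. All mice had intraperitoneal injections 2 times a week over 4 weeks, and were 4 weeks old at the first. Vitamin-treated wild types were not analysed here, so Het_B12 is set against WT_PBS only across both genotype and treatment. The sources used here give neither sex nor strain, nor the hour at which brains were taken.

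The clock is a loop of transcription that runs in nearly every cell. CLOCK and BMAL1, the product of Arntl, bind E-box sequences and switch on the Per and Cry genes, whose proteins return to the nucleus and repress that activation. In a second loop the nuclear receptors REV-ERB alpha and beta, from Nr1d1 and Nr1d2, repress Arntl, while DBP activates genes through D-box sequences. In mice kept on a light cycle the transcripts of Dbp, Nr1d1 and the Per genes peak at other hours than those of Arntl, and brain regions other than the suprachiasmatic nucleus, the pacemaker, can run at different phases.

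The stretches of promoter shown here hold matches to the motifs named above, and Per3 is given at greater length because it is the gene whose level differed between groups. They come from the 250 bases before an annotated transcription start, from RefSeq on GRCm38.p6, in which 9 of the 10 genes matched (not Per2). Each is written 5′ to 3′ on the strand of its gene, in lower case, with these motifs in capitals: the D-box TTATGTAA in Per3, the E-box CACGTG in Per1 and Cry1, and the related E′-box CACGTT, read here from the other strand as AACGTG, in Cry1 and Nr1d1. The Per3 stretch is chr4:151044666-151044915, that of Per1 is chr11:69098753-69098852, that of Cry1 is chr10:85185065-85185164 and that of Nr1d1 is chr11:98775378-98775477. The Per1 stretch lies on the plus strand and the others lie on the minus strand. The stretches of Per3 and Nr1d1 end at the base before the start, that of Cry1 ends 11 bases before it and that of Per1 ends 97 bases before it. For Nr1d1 this RefSeq start lies upstream of the gene as GENCODE M21 gives it, which begins at base 98775333 on the minus strand.
Per3: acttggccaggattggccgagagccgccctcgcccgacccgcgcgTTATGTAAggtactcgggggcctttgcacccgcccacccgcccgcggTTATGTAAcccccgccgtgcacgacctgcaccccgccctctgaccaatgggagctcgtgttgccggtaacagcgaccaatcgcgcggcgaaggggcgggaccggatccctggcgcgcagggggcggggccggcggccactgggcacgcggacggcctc
Per1: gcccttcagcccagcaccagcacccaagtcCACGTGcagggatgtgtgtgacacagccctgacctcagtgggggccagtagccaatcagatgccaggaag
Cry1: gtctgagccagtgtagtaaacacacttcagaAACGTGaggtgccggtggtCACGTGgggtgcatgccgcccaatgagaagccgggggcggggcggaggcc
Nr1d1: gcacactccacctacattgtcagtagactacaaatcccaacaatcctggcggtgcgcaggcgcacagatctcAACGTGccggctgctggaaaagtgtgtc

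Per3 carried 2 copies of TTATGTAA, which begin 205 and 158 bases before the start. Of 32851 promoter windows of 250 bases in the RefSeq table, searched on both strands, 269 (0.819%) held this D-box and 6 (0.0183%) held 2 or more copies. Among the 13 windows of the 9 genes it was found in that of Per3 only. The E-box CACGTG begins 166 bases before the start of Per1 and 60 bases before that of Cry1, and 6.02% of all windows held it. The E′-box CACGTT begins 79 bases before the start in Cry1, 28 in Nr1d1 and 166 in Cry2, and 3.85% of all windows held it. The sequence AGGTCA, the core of the element bound by ROR and REV-ERB receptors, was found in windows of Per1, Clock and Nr1d2 and in 14% of all windows. Its match in Per1, on the other strand 137 bases before the start, is left in lower case. The D-box spelling TTACGTAA, in 0.113% of all windows, and the cAMP response element TGACGTCA, in 1.55%, were found in no window of the 9 genes. No matches of different motifs overlapped in these windows. A match describes the letters of the window and does not show that a protein binds there.

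Libraries were made by QuantSeq, which reads the 3′ ends of polyadenylated RNA. Totals ran from 1683258 to 2746122 counts, so that 3 reads, the detection floor used here, correspond to 1.02 to 1.79 CPM (counts relative to library size, scaled between libraries by TMM). Tbx1 itself had 0 to 1 read in Het_B12, 0 to 3 reads in Het_PBS and 0 to 3 reads in WT_PBS, at or under the floor, so it does not check the genotype labels. On the first principal component of all genes tested, which held 18.05% of the variance, Het_B12 libraries lay at 19.145 to 32.751 and 9 of the 10 PBS libraries at -22.37 to -10.173. The library labelled WT_PBS 3 lay at 17.83, beside the Het_B12 libraries. The library Het_PBS 5 stood apart on the second component (12.07% of the variance), at 43.546. Each library's description carries a number, read here as that of an animal, and Het_PBS 5 and Het_B12 1 carry the same one. For Per3, Per1, Clock, Arntl, Nr1d1, Nr1d2, Dbp and the gene pairs, values without WT_PBS 3 or Het_PBS 5 stand beside the results. All 5 neuronal markers examined (among them Snap25 and Rbfox3) were present in every group at a summed 3940 to 4611 CPM in Het_B12, 3770 to 4434 CPM in Het_PBS and 3861 to 4827 CPM in WT_PBS. Of 6 markers of the suprachiasmatic nucleus, the neuropeptide gene Nms had 0 reads in Het_PBS and in WT_PBS. The summed level of the 6 was 39.4 to 59.4 CPM in Het_B12, 32.3 to 63.4 CPM in Het_PBS and 31.2 to 66.0 CPM in WT_PBS. Most of it came from Lhx1, Vip and Avp. Nms, Six6 and Prok2 had too few reads to be tested. Six6 averaged 0.07 CPM in Het_B12, 0.50 CPM in Het_PBS and 0.32 CPM in WT_PBS. Prok2 averaged 1.13 CPM in Het_B12, 0.42 CPM in Het_PBS and 0.48 CPM in WT_PBS. The sum therefore does not show how much of the nucleus was sampled.

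Per3 was the clock gene that differed between groups. It encodes a PERIOD protein of the repressor arm that is less needed for rhythm in mice than PER1 and PER2. Its level was 40.9, 41.6, 34.6, 44.5 and 38.02 CPM in Het_B12 replicates 1 to 5, 16.9, 20.7, 30.2, 23.1 and 20.3 CPM in Het_PBS, and 24.2, 21.4, 43.2, 22.9 and 30.9 CPM in WT_PBS. All 5 Het_B12 libraries lay above all 5 Het_PBS libraries, whereas WT_PBS overlapped Het_B12 through its replicate 3 alone. In WT_PBS 3 libraries lay within the range of Het_PBS and replicates 3 and 5 lay above it. The means were 39.9 ± 3.75 CPM for Het_B12, 22.2 ± 4.98 CPM for Het_PBS and 28.5 ± 8.98 CPM for WT_PBS (SD, n = 5 each). These values rest on 90 to 116 reads per library in Het_B12, 34 to 70 in Het_PBS and 37 to 74 in WT_PBS. The spread within Het_B12, a coefficient of variation of 9.39%, was about what counting alone gives at this depth (9.72%), while that of WT_PBS (31.5%) exceeded its counting error of 12.9%.

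In Het_B12 against Het_PBS, the comparison that asks what the vitamin does in heterozygotes, Per3 rose 1.79-fold, a log2 fold change of 0.84 ± 0.19 (SE; 95% interval 0.42 to 1.26; adjusted p = 0.00478, edgeR quasi-likelihood test with Benjamini-Hochberg adjustment over all genes tested). It ranked 254 by p among the 11718 genes. It was 1 of 10 clock genes called in this comparison, at an adjusted p under 0.05, where 7.26% of all genes tested were called, 3.47% higher and 3.79% lower. That share of the 10 is close to the background, so the count says nothing particular about clock genes. Per3 was also the only one of the 10 whose groups did not overlap, against 7.83% of all genes (3.75% with Het_B12 higher). In each of 25 alternative fits Per3 passed, with log2 fold changes of 0.75 to 0.97 and adjusted p-values of 0.00147 to 0.0263.

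**Figure D1:**
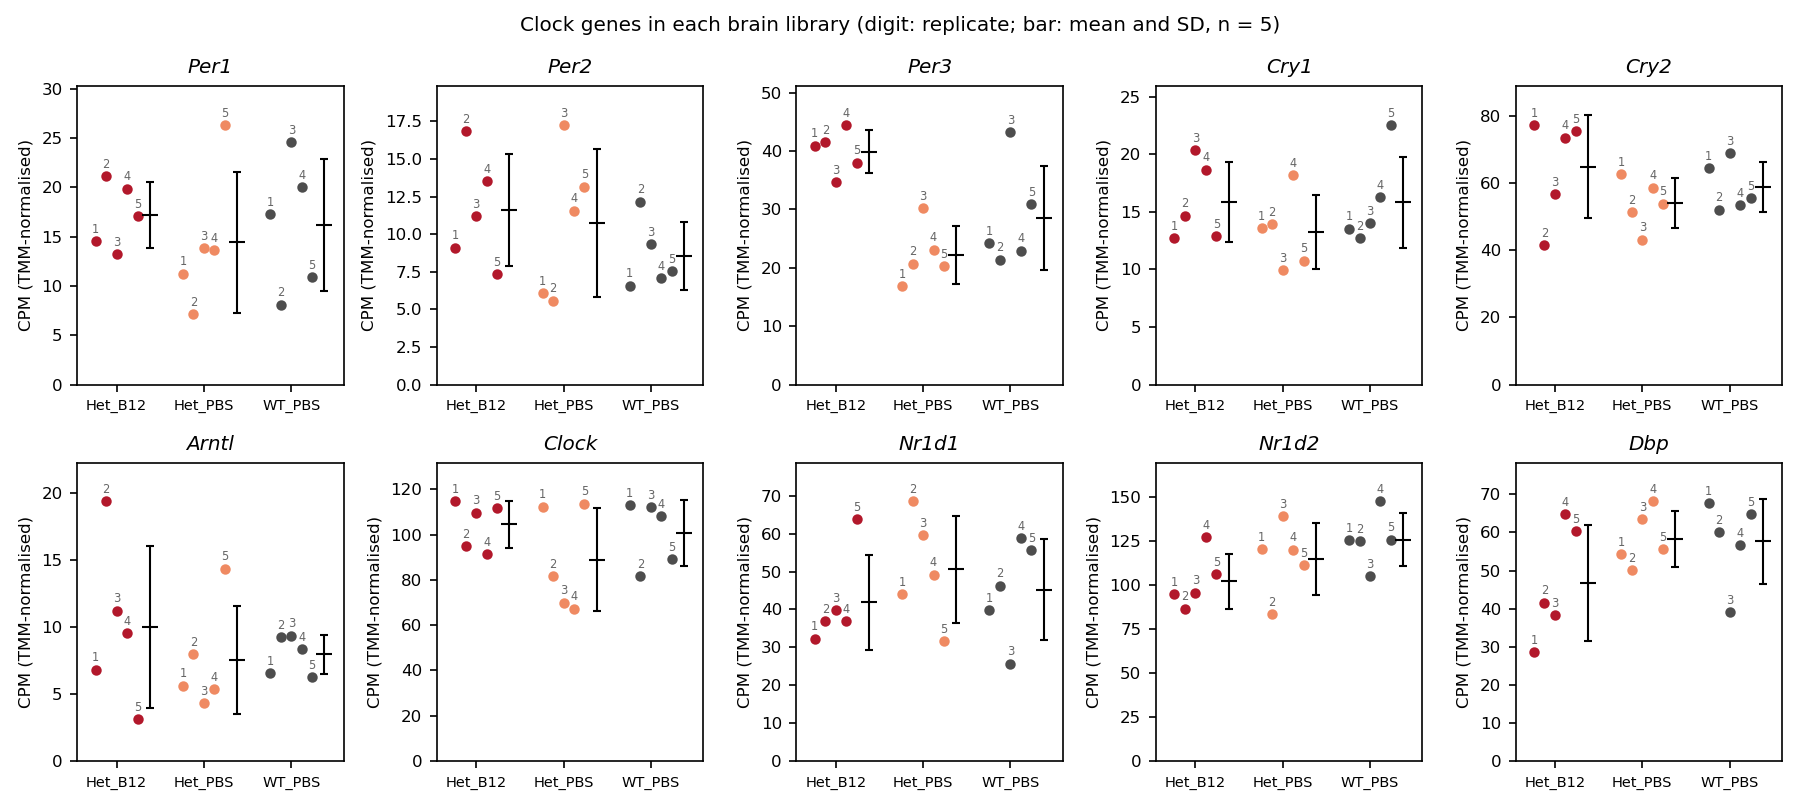
Level of each of the 10 clock genes in CPM (vertical axis, from 0) in every library, with Het_B12 left, Het_PBS in the middle and WT_PBS right. Points are libraries marked with their replicate number and bars are mean ± SD (n = 5). The 5 Het_B12 libraries stand at 34.6 to 44.5 CPM for Per3, above the Het_PBS libraries at 16.9 to 30.2 CPM, and every other gene overlaps between groups.

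Against WT_PBS, Per3 in Het_B12 did not pass, with a log2 fold change of 0.49 ± 0.19 (95% interval 0.08 to 0.90, adjusted p = 0.113, edgeR quasi-likelihood test). Here 1 library decides the call: without the library labelled WT_PBS 3 the change was 0.67 ± 0.19 with an adjusted p of 0.0157. In Het_PBS against WT_PBS the gene gave -0.35 ± 0.20 (95% interval -0.78 to 0.09, adjusted p = 0.714), and -0.15 without WT_PBS 3 (adjusted p = 0.911). Leaving out Het_PBS 5 and WT_PBS 3 together kept the difference between Het_B12 and WT_PBS at 0.67 (adjusted p = 0.0141). In the F test for any difference among the 3 groups in the same edgeR fit, Per3 had F = 9.76 (adjusted p = 0.0107) and was 1 of 10 clock genes called, beside 7.75% of all genes. The next smallest adjusted p-values in that test were 0.292 for Nr1d2 and 0.379 for Dbp.

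Per3 lies at chr4:151003652-151044665 on the minus strand of GRCm38, a protein-coding gene inside the span of the much longer Camta1, which encodes a calmodulin-binding transcription activator. Both are on the same strand, and no annotated exon bases of the pair overlap. Camta1 averaged 250.9 ± 21.4 CPM in Het_B12 and 225.6 ± 25.8 CPM in Het_PBS, a log2 fold change of 0.16 ± 0.10 that did not pass (adjusted p = 0.413, edgeR). A fit with an offset for transcript length gave Per3 a log2 fold change of 0.76 (adjusted p = 0.014).

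Cell type markers moved with the same contrast, Het_B12 against Het_PBS, and their part in the Per3 result was not tested. In that contrast edgeR called 7.26% of all genes tested. In a bulk sample fewer cells of a type and less RNA per cell cannot be told apart. Of 5 astrocyte markers 5 fell in Het_B12 against Het_PBS, and their summed level was 2223 to 2878 CPM in Het_B12, 3460 to 4392 CPM in Het_PBS and 2942 to 4341 CPM in WT_PBS. Among them S100b, a calcium-binding protein gene, fell by 0.82 ± 0.10 on the log2 scale (adjusted p = 3.87e-06, edgeR) and Aqp4, the water channel of astrocyte endfeet, fell by 0.61 ± 0.14 (adjusted p = 0.00457). Of 4 endothelial markers 4 rose by edgeR and limma-voom and 3 by DESeq2, which did not call Pecam1. Their summed levels were 110.2 to 154.6 CPM in Het_B12, 38.8 to 56.2 CPM in Het_PBS and 28.4 to 59.0 CPM in WT_PBS. Flt1, a receptor for vascular growth factors, rose by 1.53 ± 0.19 on the log2 scale (adjusted p = 3.79e-06, edgeR). Of 4 microglial markers 2 fell (C1qa and Cx3cr1), and the sum was 201.0 to 251.0 CPM in Het_B12, 315.9 to 382.3 CPM in Het_PBS and 273.5 to 437.5 CPM in WT_PBS. In the library labelled WT_PBS 3, where Per3 was high, the astrocyte sum was 2942 CPM and the microglial sum 273.5 CPM, both the lowest of WT_PBS, and the endothelial sum was 59.0 CPM, the highest of WT_PBS. Of 3 markers of cerebellar granule cells 2 rose (Cbln3 and Neurod1), with sums of 188.7 to 273.1 CPM in Het_B12, 134.6 to 183.0 CPM in Het_PBS and 175.6 to 299.8 CPM in WT_PBS. Of 5 neuronal markers 1, Rbfox3, rose, and of 4 oligodendrocyte and 3 choroid plexus markers 0 passed in edgeR, DESeq2 or limma-voom (1 of each had an unadjusted p under 0.05 in edgeR). No astrocyte, endothelial, microglial or cerebellar marker was at 0 in any group. The transcript Gm42418, a predicted gene, took 3.31% to 6.28% of counts in Het_B12 libraries, 6.47% to 10.3% in Het_PBS and 10.7% to 14.9% in WT_PBS.

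The other PERIOD genes did not pass. Per1, the family member that light, glucocorticoids and neuronal activity induce, had 14.6, 21.1, 13.2, 19.9 and 17.1 CPM in Het_B12, 11.2, 7.17, 13.8, 13.6 and 26.3 CPM in Het_PBS, and 17.3, 8.10, 24.5, 20.0 and 10.9 CPM in WT_PBS. The groups overlapped fully, and the highest library of each PBS group was one of those that stood apart, Het_PBS 5 and WT_PBS 3. The log2 fold change was 0.28 ± 0.29 in Het_B12 against Het_PBS (adjusted p = 0.622) and -0.19 ± 0.29 in Het_PBS against WT_PBS (adjusted p = 0.924), by edgeR. Without Het_PBS 5 these became 0.58 ± 0.29 (adjusted p = 0.24) and -0.50 ± 0.29 (adjusted p = 0.879), and without WT_PBS 3 the second became -0.0056 (adjusted p = 0.998). In WT_PBS 3 the summed level of 12 activity-dependent immediate early genes was 364.6 CPM, against 136.2 to 188.5 CPM in the other WT_PBS libraries. In Het_PBS 5 that sum was 118.4 CPM, the lowest of its group, while the sum of 10 glucocorticoid-responsive genes was 330.6 CPM, the highest of all groups. The part of these genes in the Per1 levels was not tested. Per2, which is needed for rhythm in mice, had 9.09, 16.8, 11.2, 13.5 and 7.33 CPM in Het_B12, 6.08, 5.57, 17.3, 11.6 and 13.2 CPM in Het_PBS, and 6.57, 12.2, 9.35, 7.09 and 7.52 CPM in WT_PBS. The groups again overlapped, with a log2 fold change of 0.12 ± 0.32 in Het_B12 against Het_PBS (adjusted p = 0.875) that turned to -0.03, -0.05 and -0.05 without Het_PBS 1, Het_PBS 2 and Het_B12 2. In Het_PBS against WT_PBS Per2 gave 0.34 ± 0.33 (adjusted p = 0.867).

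The cryptochrome genes encode the strongest repressors of the loop. Cry1 had 12.7, 14.7, 20.4, 18.7 and 12.9 CPM in Het_B12, 13.6, 13.9, 9.92, 18.2 and 10.8 CPM in Het_PBS, and 13.6, 12.7, 14.0, 16.3 and 22.6 CPM in WT_PBS. No group stood apart. The log2 fold change of Cry1 was 0.25 ± 0.25 in Het_B12 against Het_PBS (adjusted p = 0.608) and -0.25 ± 0.25 in Het_PBS against WT_PBS (adjusted p = 0.869), so that Het_B12 against WT_PBS came to -0.0021 ± 0.24. Cry2 had 77.3, 41.6, 56.7, 73.5 and 75.3 CPM in Het_B12, 62.7, 51.4, 43.2, 58.6 and 53.8 CPM in Het_PBS, and 64.5, 52.1, 69.0, 53.4 and 55.6 CPM in WT_PBS. The Het_B12 libraries held both the highest and the lowest Cry2 value. In Het_B12 against Het_PBS the change of Cry2 was 0.26 ± 0.16 (95% interval -0.08 to 0.60, adjusted p = 0.337).

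Of the activator pair, Clock had 114.6, 94.95, 109.7, 91.4 and 111.6 CPM in Het_B12, 112.3, 81.6, 69.9, 67.3 and 113.6 CPM in Het_PBS, and 112.9, 81.6, 112.2, 108.0 and 89.0 CPM in WT_PBS. The 2 lowest values were both in Het_PBS, whose other libraries lay within the range of the rest. The log2 fold change of Clock was 0.24 ± 0.14 in Het_B12 against Het_PBS (95% interval -0.07 to 0.55, adjusted p = 0.34) and -0.19 ± 0.14 in Het_PBS against WT_PBS (adjusted p = 0.813). Without Het_PBS 5 they were 0.34 (adjusted p = 0.17) and -0.29 (adjusted p = 0.847). Arntl, which encodes BMAL1, had 6.82, 19.4, 11.2, 9.53 and 3.14 CPM in Het_B12, 5.62, 7.96, 4.32, 5.37 and 14.4 CPM in Het_PBS, and 6.57, 9.25, 9.35, 8.34 and 6.27 CPM in WT_PBS. It was the most variable of the 10 in Het_B12, where the lowest library had 9 reads (95% exact Poisson interval 4.12 to 17.1, counting error only) and the highest 54 reads (40.6 to 70.5). Its coefficient of variation was 60.4% in Het_B12, 53.7% in Het_PBS and 18.4% in WT_PBS, against 19.3%, 25.2% and 24.5% expected from counting in the same groups. The change in Het_B12 against Het_PBS, 0.45 ± 0.38 on the log2 scale, had a 95% interval of -0.38 to 1.27 (adjusted p = 0.541), so the data bound this difference only loosely. It was 0.78 ± 0.39 without Het_PBS 5 (adjusted p = 0.257) and 0.06 ± 0.39 without Het_B12 2 (adjusted p = 0.955). In Het_PBS against WT_PBS Arntl gave -0.10 ± 0.39 (adjusted p = 0.978), and -0.43 without Het_PBS 5 (adjusted p = 0.931).

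The REV-ERB genes and Dbp, all driven through E-boxes, lay below 0 in Het_B12 against Het_PBS but did not pass. Nr1d1 had 32.3, 36.9, 39.7, 36.9 and 63.8 CPM in Het_B12, 44.0, 68.5, 59.5, 49.1 and 31.7 CPM in Het_PBS, and 39.8, 46.3, 25.7, 58.8 and 55.6 CPM in WT_PBS. In Het_B12 4 libraries were low and close together and replicate 5 was far above them, within the range of the PBS libraries. The log2 fold change of Nr1d1 was -0.28 ± 0.20 (95% interval -0.71 to 0.16, adjusted p = 0.456), and -0.40 without Het_PBS 5 (adjusted p = 0.243). Nr1d2 had 95.02, 86.7, 95.8, 127.1 and 106.4 CPM in Het_B12, 120.3, 83.6, 139.4, 120.2 and 111.2 CPM in Het_PBS, and 125.6, 124.9, 105.2, 147.6 and 125.8 CPM in WT_PBS. In Het_B12 3 libraries were lower than every WT_PBS library and the other 2 were within their range. Against WT_PBS the change of Nr1d2 was -0.30 ± 0.13 (95% interval -0.59 to -0.02), with an unadjusted p of 0.0268 and an adjusted p of 0.166 by edgeR. Without WT_PBS 3 it was -0.36 (adjusted p = 0.0804). Against Het_PBS it was -0.17 ± 0.13 (adjusted p = 0.502). Dbp had 28.6, 41.6, 38.4, 64.8 and 60.3 CPM in Het_B12, 54.3, 50.2, 63.4, 68.1 and 55.6 CPM in Het_PBS, and 67.8, 60.2, 39.2, 56.7 and 64.8 CPM in WT_PBS. In Het_B12 3 libraries were lower than every Het_PBS library and 2 were within their range, and the lowest WT_PBS value was that of replicate 3. The log2 fold change of Dbp was -0.32 ± 0.17 against Het_PBS (95% interval -0.70 to 0.06, adjusted p = 0.296) and -0.31 ± 0.18 against WT_PBS (adjusted p = 0.317), and the second was -0.41 without WT_PBS 3 (adjusted p = 0.122). In Het_PBS against WT_PBS it was 0.01 ± 0.18 (95% interval -0.37 to 0.39), a value whose sign turned under some alternative fits.

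For Nr1d1, Dbp and Cry2 the counts themselves are uncertain, because exons of a gene on the opposite strand overlap theirs and the sources used here do not give the strand setting of the counting. Nr1d1 at chr11:98767932-98775333 shares 263 exon bases with Thra, a thyroid hormone receptor gene that had 37256 reads over the 15 libraries, against 1638 for Nr1d1. Thra fell in Het_B12, to 890.5 ± 97.8 CPM, against 1134 ± 50.5 CPM in Het_PBS (log2 fold change -0.35 ± 0.10, adjusted p = 0.0202, edgeR). Against WT_PBS it was -0.42 ± 0.10 (adjusted p = 0.00519). The part of Thra in the Nr1d1 counts was not tested. Dbp at chr7:45705088-45710203 shares 539 exon bases with Sphk2, a sphingosine kinase gene with 1060 reads, against 1902 for Dbp. Sphk2 had a log2 fold change of 0.19 ± 0.21 in Het_B12 against Het_PBS (adjusted p = 0.652), with 32.9 ± 10.2 CPM in Het_B12 and 28.6 ± 6.95 CPM in Het_PBS. Cry2 shares 295 exon bases with D930015M05Rik, a gene whose reads were not analysed here. Arntl shares 33 exon bases with Gm45355, which had 0 reads in the 15 libraries.

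**Figure D2:**
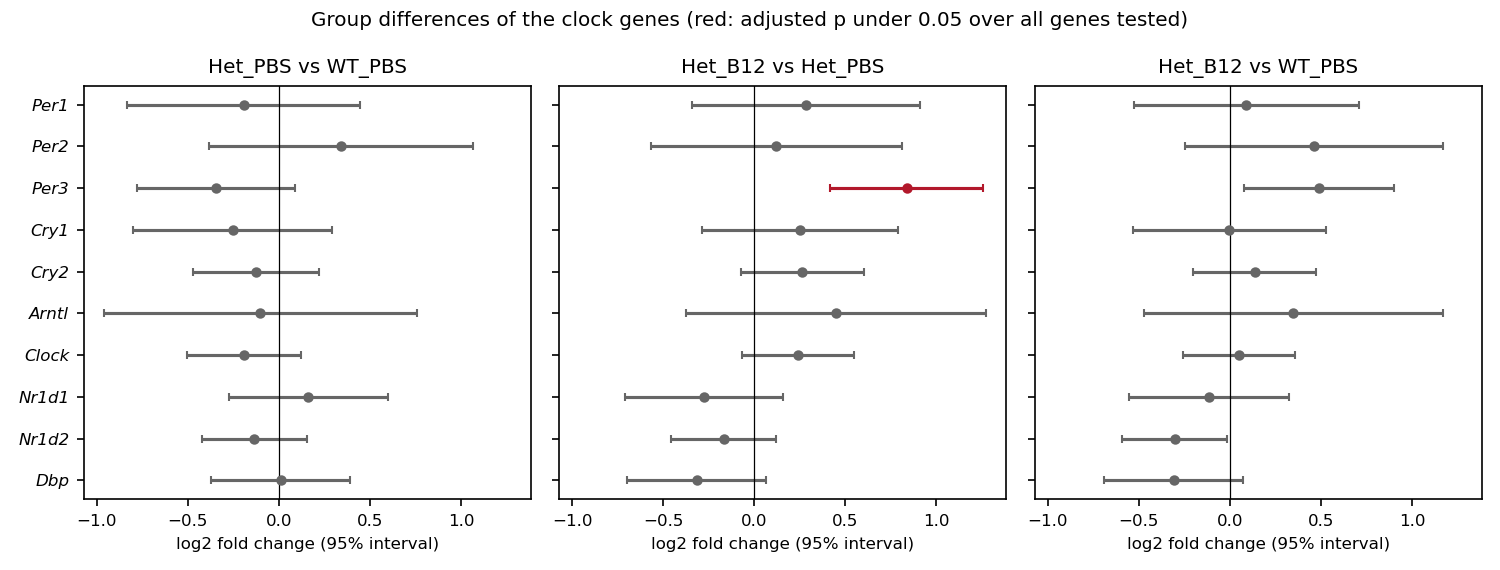
Log2 fold change of each clock gene with its 95% interval (horizontal axis) in Het_PBS against WT_PBS (left), Het_B12 against Het_PBS (middle) and Het_B12 against WT_PBS (right), with adjusted p under 0.05 in red. The interval of Per3 in Het_B12 against Het_PBS, 0.42 to 1.26, lies above 0 and is the only one of the 10 in that comparison to exclude it.

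In Het_PBS against WT_PBS, the comparison that asks about loss of 1 Tbx1 copy, 0 of 10 clock genes were called by edgeR, DESeq2 or limma-voom, and 0 of 10 had an unadjusted p under 0.05. Of all genes tested 0% were called in this comparison and 7.5% had an unadjusted p under 0.05. The log2 fold changes of the 10 ran from -0.35 (Per3) to 0.34 (Per2), with 3 above 0 and a median of -0.13, beside -0.01 over all genes. In Het_B12 against Het_PBS 7 of 10 were above 0 with a median of 0.25, beside 0.01 over all genes, and 1 of 10 had an unadjusted p under 0.05, beside 21.7% of all genes. In Het_B12 against WT_PBS 0 of 10 were called by edgeR, DESeq2 or limma-voom and 2 of 10 had an unadjusted p under 0.05 (Per3 higher and Nr1d2 lower), where 7.33% of all genes were called (3.22% higher and 4.11% lower) and 21.6% had such a p. None of the 10 had ranges that did not overlap in that comparison, as 5.38% of all genes had (2.44% with Het_B12 higher), or in Het_PBS against WT_PBS, as 0.836% had (0.393% with Het_PBS higher). The median of the 10 there was 0.07, beside 0.01 over all genes. The comparisons share libraries: Het_PBS stands in 2 of them, as do Het_B12 and WT_PBS.

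Apart from the prior count of 2 added before taking logs, a ratio of 2 genes within a library does not depend on the scaling between libraries. The ratios of Per3 to the other 9 genes were computed after the levels had been seen. The log2 ratio of Per3 to Dbp was -0.17 ± 0.46 in Het_B12 and -1.37 ± 0.23 in Het_PBS (SD, n = 5 each), a difference of 1.21 with no overlap between groups. By an exact two-sided permutation test this gave p = 0.00794, the smallest that 5 against 5 allows (adjusted p = 0.0357 over the 9 ratios). The ratio to Nr1d2 was -1.33 ± 0.20 in Het_B12 and -2.33 ± 0.30 in Het_PBS, a difference of 1.00 with the same exact p and adjusted p. That to Nr1d1 was -0.03 ± 0.44 in Het_B12 and -1.13 ± 0.40 in Het_PBS, a difference of 1.10 with overlap between groups (exact permutation p = 0.0159, adjusted p = 0.0476). The other 6 ratios, those to Per1, Per2, Cry1, Cry2, Arntl and Clock, were higher by 0.51 to 0.68 and did not pass (adjusted exact p = 0.114 to 0.325). Because all 9 share Per3, they are not separate pieces of evidence, and they were formed around a gene whose difference was already known. Against WT_PBS none of the 9 passed (adjusted exact p = 0.214 to 0.675). There the ratio to Dbp differed by 0.85, and by 1.14 without the library labelled WT_PBS 3. That to Nr1d2 differed by 0.82, and by 1.04 without this library. Both then had no overlap between groups (exact permutation p = 0.0159 each, the smallest that 5 against 4 allows). For both ratios WT_PBS 3 was the only WT_PBS library within the range of Het_B12. Leaving it out therefore fixed this outcome in advance, and these p-values add no support. The ratio to Nr1d1 differed by 0.61, and by 0.95 without that library, with overlap (exact permutation p = 0.0317). These p-values were not adjusted, and the other 6 ratios were not computed without WT_PBS 3.

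**Figure D3:**
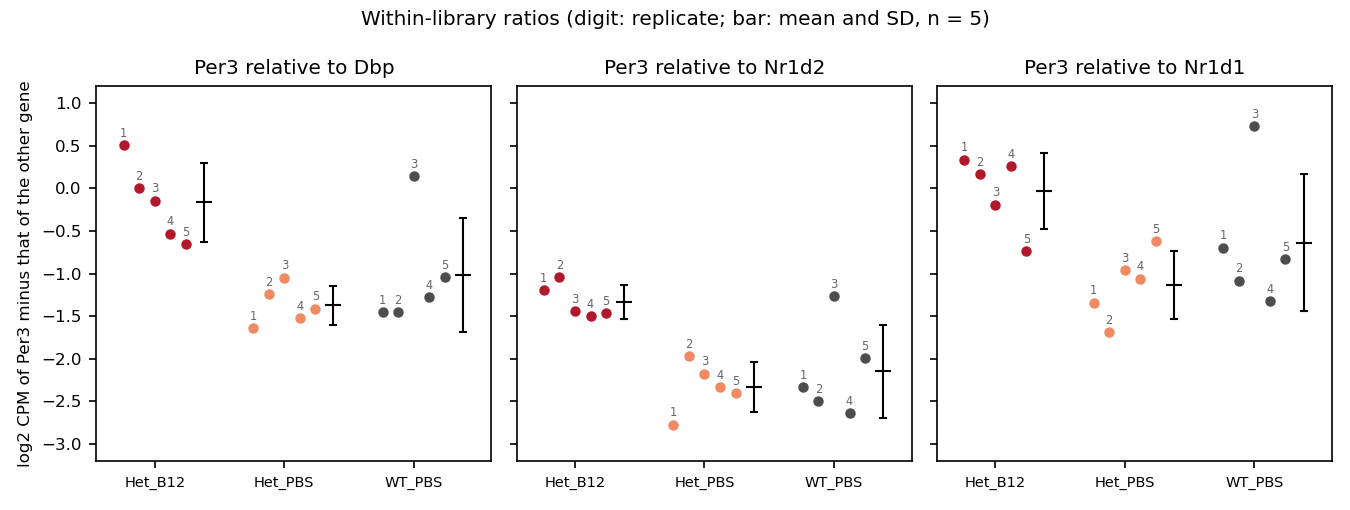
Log2 ratio of Per3 to Dbp, Nr1d2 and Nr1d1 (vertical axis, panels left to right) in every library, with Het_B12 left, Het_PBS in the middle and WT_PBS right. Points are libraries with their replicate number and bars are mean ± SD (n = 5). For Dbp the Het_B12 libraries stand at -0.65 to 0.50 and the Het_PBS libraries at -1.64 to -1.05, and WT_PBS 3 stands at 0.14 among the Het_B12 libraries.

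The balance between the arms of the loop was described for each library as the mean log2 CPM of Per1, Per2, Per3, Nr1d1, Nr1d2 and Dbp minus that of Arntl and Clock, with no test. It was -0.04, -0.27, -0.23, 0.38 and 0.79 in Het_B12, 0.03, -0.04, 1.09, 0.76 and -0.28 in Het_PBS, and 0.16, 0.12, -0.04, 0.17 and 0.41 in WT_PBS. The groups overlapped, and the libraries of the heterozygous groups were spread more widely (SD 0.45 in Het_B12 and 0.58 in Het_PBS) than those of WT_PBS (SD 0.16). The highest value, in Het_PBS 3, and the lowest, in Het_PBS 5, came from the same group.

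Within groups, pairs of clock genes were compared by the correlation of log2 CPM over the 15 libraries after each group's mean was subtracted. Of 45 pairs 23 had a positive Pearson r, and 0 passed a Benjamini-Hochberg adjustment of permutation p-values, while 3 had an unadjusted p under 0.05. The highest r was that of Nr1d2 with Dbp, at 0.63 (permutation p = 0.00953, adjusted 0.429) with a Spearman rho of 0.73 (permutation p = 0.00484, adjusted 0.218), and r was 0.56 without the 2 libraries farthest from the median of Nr1d2. Arntl with Nr1d1, its repressor, had r = -0.54 (permutation p = 0.0421, adjusted 0.561) and rho = -0.44 (permutation p = 0.122), and r was -0.41 without the 2 farthest libraries. Per2 with Cry2 had r = -0.54 (permutation p = 0.0469, adjusted 0.561) and rho = -0.58 (permutation p = 0.0306), with r = -0.57 without the 2 farthest. Without WT_PBS 3 and Het_PBS 5 also 0 pairs passed, and several of these values moved. Nr1d2 with Dbp then had r = 0.55 and rho = 0.60, and Per2 with Cry2 had r = -0.62. Arntl with Nr1d1 had r = -0.40 but rho = 0.033, and Per1 with Nr1d1, at -0.55 over all 15 libraries, had r = -0.10. The lowest r of the 13 libraries was that of Per2 with Clock, at -0.76 (permutation p = 0.012, adjusted 0.539), against -0.48 over all 15.

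**Figure D4:**
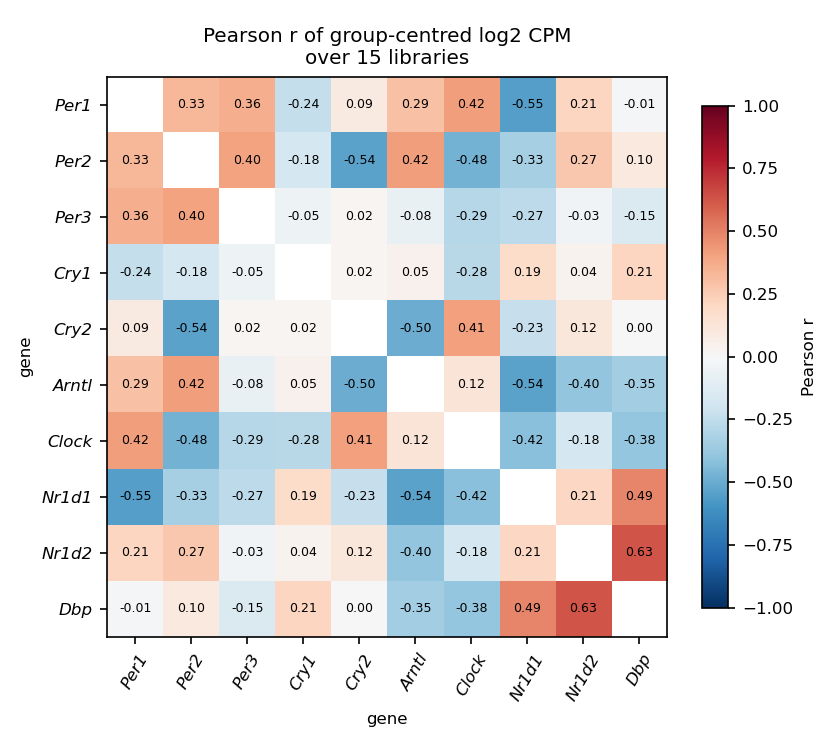
Pearson r between each pair of the 10 clock genes, on log2 CPM with the group mean subtracted, over 15 libraries (colour and printed value, from -1 to 1). The highest cell is Nr1d2 with Dbp at 0.63, the lowest is Per1 with Nr1d1 at -0.55 (-0.10 without WT_PBS 3 and Het_PBS 5), and no pair passed after adjustment over the 45.

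Beyond the 10, further genes of the clock were read from 5 lists written from textbook knowledge, 35 genes of which 29 were tested. By edgeR 0 of 29 were called in any of the 3 comparisons, and 3 had an unadjusted p under 0.05 in Het_B12 against Het_PBS, 5 in Het_B12 against WT_PBS and 1 in Het_PBS against WT_PBS. Of all genes tested 7.26%, 7.33% and 0% were called in these comparisons, and 21.7%, 21.6% and 7.5% had an unadjusted p under 0.05. DESeq2 called 0 in each comparison, and limma-voom called 1, in Het_B12 against WT_PBS. This was Csnk1d, casein kinase 1 delta, which sets how fast PER proteins are degraded and is named after its values were seen. It had 89.1 ± 8.54 CPM in Het_B12 and 65.6 ± 22.5 CPM in WT_PBS, a log2 fold change of 0.46 ± 0.17 that did not pass in edgeR (adjusted p = 0.093). Among the D-box factors, Nfil3, which represses at the sites that DBP activates, had 8.40 ± 3.71 CPM in Het_B12 and 4.86 ± 1.16 CPM in Het_PBS, a log2 fold change of 0.79 ± 0.42 that did not pass (adjusted p = 0.265). Hlf, an activator at D-boxes like DBP, gave -0.12 ± 0.12 (adjusted p = 0.595). Among ROR receptors, which activate Arntl at the elements REV-ERB proteins bind, Rorb gave -0.17 ± 0.13 (adjusted p = 0.491) and Rora -0.10 ± 0.11 (adjusted p = 0.651). Among other repressors at E-boxes, Bhlhe41 (DEC2) gave -0.29 ± 0.18 (adjusted p = 0.378) and Bhlhe40 (DEC1) 0.18 ± 0.25 (adjusted p = 0.742).

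The genes of the kinases and ligases that act on PER and CRY proteins formed the largest list, with 12 of 13 tested. Csnk2a1, the catalytic alpha subunit of casein kinase 2, had the smallest p of the list in Het_B12 against Het_PBS, with 128.4 ± 13.6 CPM in Het_B12 and 160.0 ± 27.0 CPM in Het_PBS (log2 fold change -0.32 ± 0.12, adjusted p = 0.101, edgeR). Csnk2b, its regulatory subunit, gave 0.28 ± 0.16 (adjusted p = 0.335). Among clock-controlled outputs, Tspan4, a tetraspanin gene, had 18.1 ± 5.55 CPM in Het_B12 and 11.95 ± 2.92 CPM in Het_PBS (0.61 ± 0.27, adjusted p = 0.162). Noct, the gene of the phosphatase nocturnin, had 14.4 ± 4.59 CPM in Het_B12 and 9.42 ± 3.98 CPM in Het_PBS (0.60 ± 0.29, adjusted p = 0.21).

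**Figure D5:**
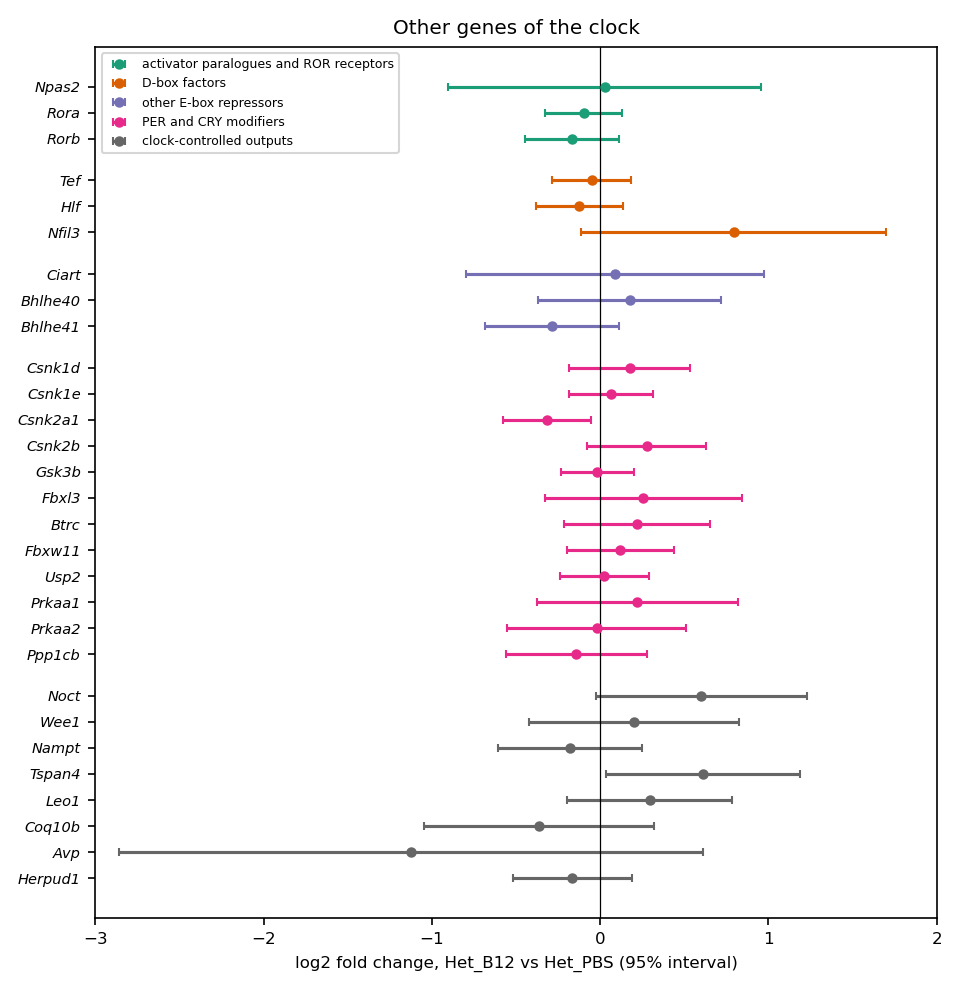
Log2 fold change with 95% interval (horizontal axis) in Het_B12 against Het_PBS for the 29 tested genes of the clock beyond the 10, coloured by list. No gene passed after adjustment, and Nfil3 at 0.79 and Avp at -1.12 are the farthest from 0, both with intervals that include it.

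Genes through which body state can act on the clock were read in the same way. In Het_B12 against Het_PBS edgeR called 7.26% of all genes tested, and 21.7% had an unadjusted p under 0.05, so 0 called in a short list says little. Of 10 glucocorticoid-responsive genes 8 were tested and 0 were called by edgeR, DESeq2 or limma-voom in Het_B12 against Het_PBS (0 had an unadjusted p under 0.05). Of these 8, 7 lay below 0 and 1 above, with a median of -0.22, beside 0.01 over all genes. Tsc22d3, a standard glucocorticoid target, gave -0.29 ± 0.16 (adjusted p = 0.31) and Cdkn1a -0.33 ± 0.19 (adjusted p = 0.316). Of 12 activity-dependent immediate early genes 8 were tested and 0 were called by the same 3 tools (1 had an unadjusted p under 0.05), with Ier2 at 1.41 ± 0.63 (adjusted p = 0.177) and Arc at 0.45 ± 0.41 (adjusted p = 0.578). Of these 8, 5 lay above 0 and 3 below. The cold-inducible RNA-binding genes Cirbp and Rbm3, which follow body temperature, gave -0.25 ± 0.17 (adjusted p = 0.43) and -0.41 ± 0.43 (adjusted p = 0.641). Of the 6 suprachiasmatic markers 3 were tested, and among them Lhx1 gave 0.50 ± 0.23 (adjusted p = 0.195) and Avp -1.12 ± 0.80 (adjusted p = 0.449).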

How the data were processed

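Raw read counts of every gene in the 15 libraries were deposited by the authors in 1 table. The submitters' processing notes name STAR, HTSeq, edgeR and the build mm10. The sources used here give no versions, annotation or strand setting. Libraries were QuantSeq 3′, per the labels' protocols, which name both whole brain and hemisphere as the tissue and more than 1 method of RNA isolation. Groups and replicate numbers came from the titles. The descriptions carry a number that differs between libraries of a group and was read as that of an animal, but the labels do not say what it is. If it is not, p-values measure only how far libraries of a group differ, which may be technical. Totals were 1683258 to 2746122 counts. Intervals and floors cover counting error only. Of 30386 identifiers 30348 (99.87%) matched GENCODE M21 (GRCm38), which gave positions and overlaps.

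In R 4.3.3, genes kept by filterByExpr (11718) were scaled by TMM and fitted in edgeR 4.0.16 by the quasi-likelihood method to all 15 libraries, a mean for each group and no other term (12 residual degrees of freedom, biological coefficient of variation 0.181). Calls needed an adjusted p under 0.05 (Benjamini-Hochberg, over all genes tested). Correlations, principal components, the balance of the loop and the ratios of Per3 used log2 CPM with a prior count of 2. Correlation p-values are two-sided, from 100000 permutations of libraries within groups. On simulated counts with known changes, Het_B12 against Het_PBS recovered 73% of genes changed 2-fold and 34% of those changed 1.5-fold, with 6.14% of calls false. Het_B12 against WT_PBS recovered 74% and 36%, and Het_PBS against WT_PBS 66% and 31%. The simulation was run 1 time, changed a small share of genes of all levels and held no outlying library. These percentages therefore may not hold for genes with few reads or for the libraries that stood apart.

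Alternatives were DESeq2 size factors, DESeq2 1.42.0, limma-voom (limma 3.58.1), no filter, a mean count of at least 50, a transcript length offset, the replicate number as a block, only the 2 groups compared, and libraries left out. Leaving out Het_B12 1 with Het_PBS 5, and the ratios of Per3, were chosen after seeing the data. The members and gene lists were chosen with earlier results of these data known. Named genes are the 10 members, list genes that passed or had the 2 smallest p of their list in Het_B12 against Het_PBS (markers by count and example), genes that overlap a member, and for 4 members the 3 genes of most similar pattern. Same-numbered libraries of different groups did not deviate together (r of -0.0933 to 0.106), so they were not treated as pairs. The libraries with the same animal number had a chi-square per degree of freedom of 10.72, against a lowest value of 3.11 among 30 pairs within groups. This pair crosses groups, and Het_PBS 5 with the 5 Het_B12 libraries gave 9.40 to 11.23. No library was treated as a duplicate. These values cannot show whether both libraries came from 1 mouse.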

Additional observations from a re-analysis of the deposited data

Results flagged for a closer look

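Nr1d1 in Het_B12 replicate 5, at 63.8 CPM, lay far from the other 4 Het_B12 libraries, which held 32.3 to 39.7 CPM. The gap to the nearest of them was 0.764 of the whole range of the group, above Dixon's 95% critical value of 0.71 for 5 libraries. It was the 1 flag among 30 groups of 5 examined, and chance flags about 1 in 20.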

How the results depend on the processing

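Per3 in Het_B12 against Het_PBS passed in all 25 alternatives, and in Het_B12 against WT_PBS it passed in 2 of 25 (0.67 without WT_PBS 3, with Het_PBS 5 in or out). Leaving out 1 library at a time gave 0 to 1 clock genes called in Het_B12 against WT_PBS, and 0 to 14, 549 to 1050 and 449 to 1268 genes called in all for Het_PBS against WT_PBS (0 with all libraries), Het_B12 against Het_PBS (851) and Het_B12 against WT_PBS (859). The lowest counts came without Het_B12 1 (549 against Het_PBS and 515 against WT_PBS) and, against WT_PBS, without Het_B12 2 (513), WT_PBS 1 (477) and WT_PBS 5 (449). Without a filter on low counts 40 genes were called in Het_PBS against WT_PBS. Without WT_PBS 3 and Het_PBS 5 together 1 clock gene and 1390 genes in all were called in Het_B12 against WT_PBS and 1 gene in Het_PBS against WT_PBS. Without Het_B12 1 and Het_PBS 5, a choice made after seeing the data, 437 genes were called in Het_B12 against Het_PBS and 2 in Het_PBS against WT_PBS. The cause of these moves was not tested.

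No sign turned among called values. The transcript length offset turned Dbp in Het_PBS against WT_PBS to -0.022 and Clock in Het_B12 against WT_PBS to -0.015, and no filter turned Cry1 there to 0.007. Without WT_PBS 3 and Het_PBS 5 Dbp came to -0.078 in Het_PBS against WT_PBS, and without Het_B12 1 and Het_PBS 5 Cry1 came to 0.063 in Het_B12 against WT_PBS. Leaving out 1 library at a time took log2 fold changes across 0 for 7 values. In Het_PBS against WT_PBS these were Arntl (-0.431 to 0.045) and Dbp (-0.085 to 0.074). In Het_B12 against Het_PBS it was Per2 (-0.054 to 0.370). In Het_B12 against WT_PBS they were Per1 (-0.066 to 0.269), Cry1 (-0.111 to 0.163), Arntl (-0.038 to 0.580) and Clock (-0.015 to 0.095). With the replicate block 830, 800 and 0 genes were called in Het_B12 against Het_PBS, Het_B12 against WT_PBS and Het_PBS against WT_PBS, and Per3 gave 0.86 (adjusted p = 0.00408, edgeR) in the first of these. The block moved no call of a clock gene, and a library correlated best with its own number in 10 of 30 cases. Low depth limits Arntl, Per2, Cry1 and Per1 most.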

Other observations

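The genes whose pattern over the 15 libraries was most like that of 4 clock genes were ranked by Pearson r of log2 CPM with the group means subtracted, among 11708 genes, as a description with no test. For Per1 they were Polr3c (r = 0.92), Csgalnact2 (0.87) and Pacsin2 (0.85). For Dbp they were Pde5a (0.88), Asrgl1 (0.87) and Zfp58 (0.86). For Nr1d1 they were Psmd7 (0.92), E430018J23Rik (0.89) and Zfp706 (0.87). For Arntl they were Elk4 (0.90), Dhx16 (0.86) and Ythdf1 (0.85). All values share the 15 libraries and their depths, and the 10 clock genes themselves were left out of the ranking. Each r is among the highest of 11708 over few libraries, where high values can arise by chance. The ranking therefore does not show that these genes vary together.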
